A study of Homo sapiens with 2 samples.

Results

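The CYP1 enzymes and the proteins that control them were described by 8 genes: CYP1A1, CYP1A2 and CYP1B1, the receptor AHR, its partners ARNT and ARNT2, the repressor AHRR, and TIPARP. The members were chosen by gene name, as every probe set that the platform annotation assigns to them. This gave 18 of the 54675 probe sets of the array, and none of the 18 was shared with another gene. The values come from HepG2, a human hepatocellular carcinoma cell line. One group received PADMA28, a preparation of many herbs given as an aqueous ethanolic extract at 218 μg/ml, and the control group received 0.9% EtOH without the extract, both for 18 h. Cells of 3 cultures were pooled per group and measured on 1 Affymetrix Human Genome U133 Plus 2.0 array, so the spread between cultures is unknown and no test across samples could be made. From these arrays alone, whether a difference comes from the extract or from the pools of cells cannot be told apart. The paper also measured selected genes by quantitative PCR in independent experiments, which are not part of the array data.

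The aryl hydrocarbon receptor (AhR, encoded by AHR) is a transcription factor that waits in the cytosol with chaperones until a ligand binds, such as a dioxin, a polycyclic aromatic hydrocarbon or a plant compound. It then enters the nucleus, pairs with ARNT and binds DNA at dioxin response elements. The genes of the CYP1 monooxygenases are its classical targets, and their products oxidise many of the ligands. AHRR, which competes for ARNT, and TIPARP, which attaches ADP-ribose to the receptor, are targets that act back on AhR. In liver cells CYP1A1 is known as an inducible enzyme, while CYP1A2, also a target, is in addition a constitutive enzyme of hepatocytes.

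The DNA before the gene starts is shown for CYP1A1, which had by far the largest difference between the arrays, for its neighbour CYP1A2, and for TIPARP, a known target without a difference. Each sequence holds the 250 bases before a RefSeq gene start in GRCh38.p14, 5′ to 3′ on the strand of the gene. Capitals mark the core of the dioxin response element, GCGTG, on either strand, so that a core on the other strand reads CACGC. The CYP1A1 window is chr15:74725529-74725778 on the minus strand, the CYP1A2 window is chr15:74748595-74748844 on the plus strand, and the TIPARP window, the first of 3 starts, is chr3:156674340-156674589 on the plus strand.
CYP1A1: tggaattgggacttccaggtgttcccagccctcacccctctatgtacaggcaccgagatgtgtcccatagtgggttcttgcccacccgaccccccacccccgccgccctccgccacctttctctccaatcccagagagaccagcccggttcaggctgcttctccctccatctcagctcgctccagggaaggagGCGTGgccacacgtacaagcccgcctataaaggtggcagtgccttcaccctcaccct
CYP1A2: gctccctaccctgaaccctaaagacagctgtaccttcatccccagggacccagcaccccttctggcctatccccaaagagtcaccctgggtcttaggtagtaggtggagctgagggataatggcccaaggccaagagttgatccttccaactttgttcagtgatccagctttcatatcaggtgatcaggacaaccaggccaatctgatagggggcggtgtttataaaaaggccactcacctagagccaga
TIPARP: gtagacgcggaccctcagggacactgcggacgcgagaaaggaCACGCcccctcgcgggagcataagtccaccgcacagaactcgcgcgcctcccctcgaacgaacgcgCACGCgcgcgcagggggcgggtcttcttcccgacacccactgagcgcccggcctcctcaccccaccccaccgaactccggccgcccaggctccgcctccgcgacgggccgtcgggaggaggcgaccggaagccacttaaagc
The CYP1A1 window held 1 core, which begins 57 bases before the start. The CYP1A2 window held 0, and the TIPARP window held 2, both on the other strand, at 208 and 142 bases before the start. The response elements known for CYP1A1 lie for the most part farther upstream, outside these windows.

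RefSeq starts were at hand for 6 of the 8 members, with 9 windows in all, because TIPARP has 3 starts and AHRR has 2. A core was found in 4 of the 9 windows, those of CYP1A1 and the first TIPARP start and both of AHRR, and in none of those of AHR or ARNT. Of all 35114 windows of the same length in the table, 32.2% held at least 1 core. The longer form TNGCGTG, which contains the core, was found in 4.52% of all windows and among the members only before the first start of AHRR. These matches describe letters in a short window and not the binding of a factor.

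CYP1A1 went from a value not well above background to a bright signal with PADMA28, while no other member differed by 2-fold in either direction. AHR was 1.57-fold lower, the probe sets of ARNT lay on both sides of 0, and TIPARP had the same value on both arrays. CYP1B1, ARNT2 and AHRR were not well above background on either array. With 1 of 18 member probe sets more than 2-fold higher and 0 lower, the counts stand beside 0.646% of all probe sets that were more than 2-fold higher and 0.412% that were lower. For genes, taken by the brightest probe set of their own, the shares were 0.875% higher and 0.384% lower, with 1 of the 8 members higher and 0 lower.

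Values are log2 expression values from GCRMA, in which 1 unit is a 2-fold step, and a difference is the value on the PADMA28 array minus that on the EtOH array. A probe set counted as well above background when it lay at least 2 log2 units over the most frequent value of its array, which put the limit at 4.25 for EtOH and 4.35 for PADMA28. Values under the limit are called below background, which does not mean that no signal was present. Of the 18 member probe sets, 6 were above the limit on both arrays, 1 on the PADMA28 array only and 11 on neither. A fold change is given as a lower bound when 1 array was below its limit, and not at all when both were. Levels of different probe sets depend on their probes and were not compared. The arrays measure RNA from whole cultures, so fewer cells that express a gene and less RNA per cell cannot be told apart.

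**Figure D1:**
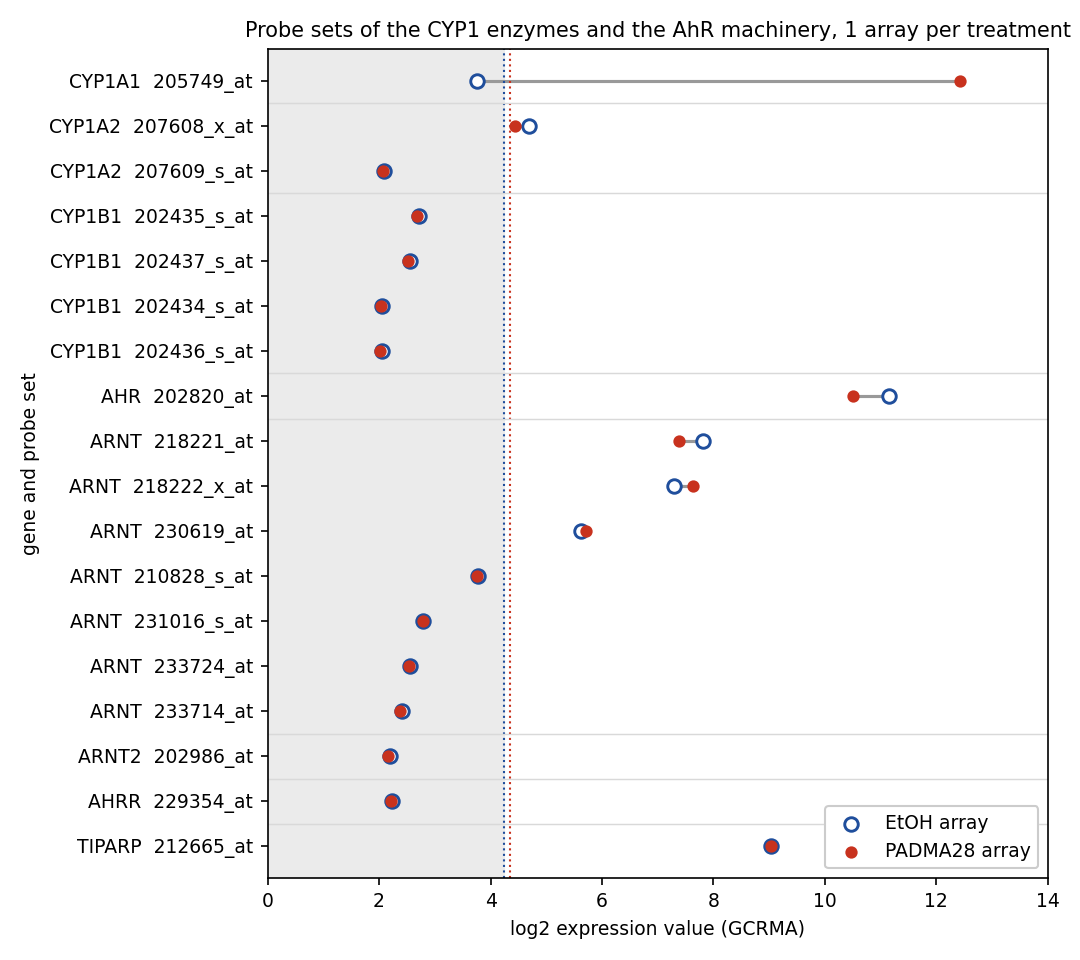
Log2 expression value (horizontal axis) of each of the 18 member probe sets (vertical axis) on the EtOH array (open blue circles) and on the PADMA28 array (red dots), with 1 array per treatment and no error bars. Dotted lines mark the background limits of 4.25 (EtOH) and 4.35 (PADMA28), and the area below the first is grey; CYP1A1 is the only probe set that crosses it, from 3.76 to 12.43.

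Of the CYP1 enzymes, CYP1A1 activates and breaks down polycyclic aromatic hydrocarbons. Its single probe set, 205749_at, had a log2 value of 3.76 with EtOH and of 12.43 with PADMA28. The EtOH array was thus below its limit and the PADMA28 array far above. Against the limit of the EtOH array the signal was at least 290-fold higher, or 8.18 log2 units. With a limit 3 instead of 2 units above the most frequent value it was at least 145-fold higher, so the bound depends on that choice. The mean fold that the paper reports for CYP1A1 by quantitative PCR in independent experiments is smaller than both bounds. The spread given with that mean reaches past the smaller bound but not past the larger. Both bounds describe the array signal of pooled cells against a chosen limit, and are not limits on the change in RNA. The difference of the array values was 8.67, which rests on an EtOH value below the limit and fell to 6.17 when 64 was added to both linear values. It ranked 1 among all 54675 probe sets, also under that setting, and 0 other probe sets exceeded the bound of 8.18. In all, 218 probe sets were above the limit on the PADMA28 array only.

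CYP1A2, which oxidises caffeine and aromatic amines, lies next to CYP1A1 on chromosome 15, with no protein-coding gene between them and on the opposite strand. Its probe set 207608_x_at was at 4.68 with EtOH and at 4.45 with PADMA28. Both values were just above the limits, and the difference was -0.24, or 1.18-fold lower. Of the 21502 probe sets above the limit on both arrays, 17.0% had a difference at least as low. An absolute difference at least as large was found in 40.3% of the 21502. The suffix _x_at marks probe sets in which some probes can also bind other transcripts. The second CYP1A2 probe set, 207609_s_at, was at 2.09 with EtOH and at 2.07 with PADMA28, below background on both arrays, so the gene is above background on 1 of its 2 probe sets.

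Around this pair of genes no other large difference was found. Among the 4 nearest genes on each side that RefSeq classes as protein-coding, 8 in all, 7 were measured by an own probe set and 5 of these were above the limit on both arrays. Their differences ranged from -0.04 to 0.37, and 0 passed 2-fold. The highest was that of EDC3, an mRNA decapping factor and the nearest gene on the CYP1A1 side. CSK, a kinase that restrains SRC and the nearest gene on the CYP1A2 side, was at 0.21. The choice to look at these neighbours was made after the CYP1A1 value was known.

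CYP1B1, an enzyme of oestrogen and hydrocarbon oxidation outside the liver, has 4 probe sets. Its log2 values were between 2.04 and 2.72 with EtOH and between 2.02 and 2.68 with PADMA28. All 4 lay below the background limit on both arrays, so a change of the transcript was not measurable, and no fold change is given. The 2 probe sets of its antisense transcript CYP1B1-AS1 were below background on both arrays as well.

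AHR, the receptor itself, is represented by 202820_at. The log2 value was 11.15 with EtOH and 10.50 with PADMA28, well above background on both arrays. The difference was -0.65, which is 1.57-fold lower. Counted from the lowest difference it ranked 785 of 54675 probe sets, and 2.94% of the 21502 probe sets above the limit on both arrays were at least as low. An absolute difference at least as large was found in 7.25% of the 21502. The receptor transcript was thus detected on both arrays and lower with PADMA28, within the 2-fold threshold.

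ARNT, the partner of AhR and also of the hypoxia-inducible factors, has 7 probe sets, of which 3 were above background on both arrays. These 3 did not move alike. The brightest, 218221_at, was at 7.81 with EtOH and at 7.38 with PADMA28, a difference of -0.43. The probe set 218222_x_at was at 7.29 with EtOH and at 7.64 with PADMA28, a difference of 0.35, and it carries the suffix for probes that can bind elsewhere. The dimmest of the 3, 230619_at, was at 5.62 with EtOH and at 5.72 with PADMA28, a difference of 0.10. From the lowest to the highest the 3 differences spanned 0.78 log2 units. Over the 2066 genes with at least 3 such probe sets this span had a median of 0.33, and 9.20% of them had a span at least as wide as that of ARNT. No direction for ARNT can be given from these values. The other 4 probe sets, at 2.40 to 3.78 with EtOH, were below background on both arrays.

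ARNT2, a close relative of ARNT that is best known from the nervous system, has the probe set 202986_at. It was at 2.19 with EtOH and at 2.17 with PADMA28, below background on both arrays. AHRR, the repressor, has the probe set 229354_at, at 2.22 with EtOH and at 2.21 with PADMA28, also below background. For both genes a change was not measurable at these levels, which does not mean that the transcript is absent.

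TIPARP, the ADP-ribosyltransferase, has the probe set 212665_at. Its log2 value was 9.03 on both arrays, well above background, and the difference was -0.0017. Of the probe sets above the limit on both arrays, 99.5% had an absolute difference at least as large. The 11 member probe sets below background on both arrays, from CYP1A2, CYP1B1, ARNT, ARNT2 and AHRR, had differences between -0.05 and 0.01 with a median of -0.02. All 32477 probe sets of that kind had a median of -0.03, and 94.9% of them were below 0, against 10 of the 11 members, so the small negative values are shared by dim probe sets in general.

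**Figure D2:**
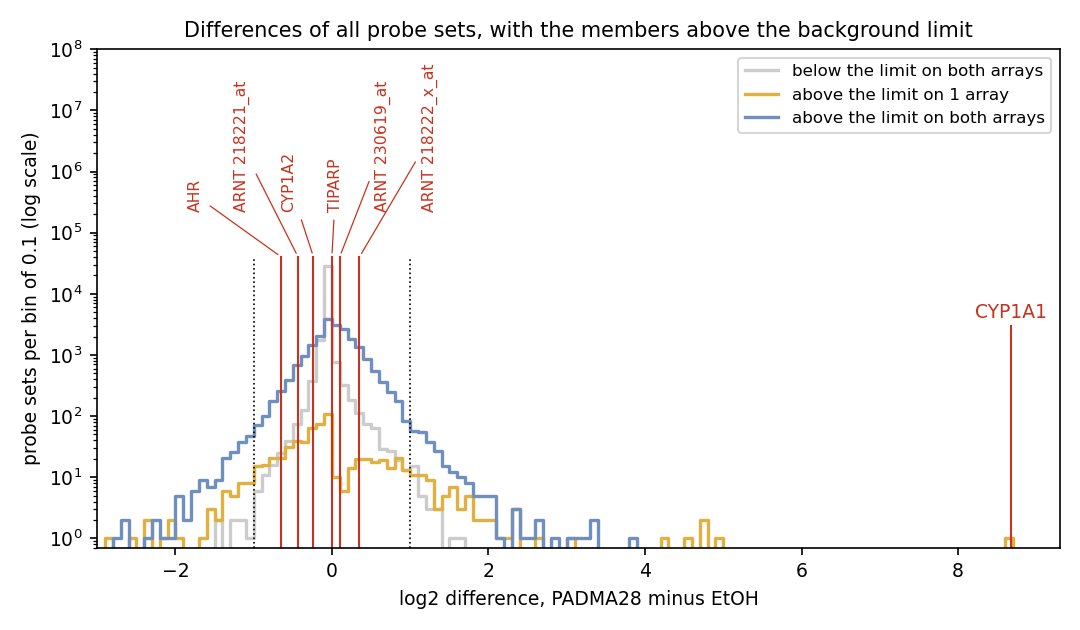
Number of probe sets (vertical axis, log scale) per bin of 0.1 log2 units of the difference, PADMA28 minus EtOH (horizontal axis), for probe sets above the background limit on both arrays (blue), on 1 array (yellow) or on neither (grey), from 1 array per treatment. Red lines mark the 7 member probe sets above the limit on at least 1 array and dotted lines mark 2-fold; 6 members lie between -0.65 and 0.35, with AHR in the lower tail of the blue curve, and CYP1A1 stands alone at 8.67.

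Genes with a difference near that of a member were looked up among those in the same state on each array. Each gene was taken by the brightest probe set of its own, so other probe sets were not searched. Over all probe sets the second largest difference was 4.93. For CYP1A1, below the limit with EtOH and above it with PADMA28, there were 75 such genes, and none was close. By the difference of the array values the 3 nearest were the pseudogene NMRAL2P at 4.79, the kelch domain gene KLHDC7B at 4.55 and PMAIP1, a BH3-only gene of apoptosis, at 3.04. Their EtOH values were below the limit, so these differences give no order, and as lower bounds the genes were at least 7.68-fold, 10.6-fold and 7.36-fold higher. For AHR, above both limits, there were 10186 genes, and the nearest were TESC, a calcium-binding protein, FIGN, an ATPase that severs microtubules, and SORCS2, a sorting receptor, each at -0.65. With 2 arrays this likeness rests on 1 difference per gene.

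The other genes of the pathway were taken from 7 lists with 67 genes, of which 62 were measured by a probe set that no other gene shares. The list of AhR targets has 20 genes, 5 of them members, and was chosen with earlier results of these data known. Of its 19 measured genes 4 were more than 2-fold higher, 0 were lower and 15 were within 2-fold. Of these 15, 7 were below background on both arrays, where a change was not measurable. Of all genes 0.875% were higher and 0.384% lower. Without the members, 3 of the 14 measured targets were higher and 0 lower, and 9 of the 14 were above background on an array. Besides CYP1A1 the higher targets were the glutathione transferase GSTA1, the quinone reductase NQO1 and the monooxygenase CYP2S1. GSTA1 went from 8.72 with EtOH to 11.33 with PADMA28, a difference of 2.61, while a second probe set of it, at -0.01, was below background on both arrays. Probes for GSTA1 can also bind near-identical transcripts of its gene family. All 3 probe sets of NQO1 were higher, by 1.38 to 1.69. CYP2S1 went from 6.11 to 7.27, a difference of 1.16, which fell to 0.71 when 64 was added to both linear values. By quantitative PCR the paper reports a mean fold for CYP2S1 that is larger than on the array. It also reports GSTA1 as higher, with primers that detect several members of its family. NQO1 and GSTA1 are also known targets of the transcription factor Nrf2.

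Among the targets within 2-fold, ALDH3A1, an aldehyde dehydrogenase of the classical AhR gene battery, was at 3.36 with EtOH and at 3.44 with PADMA28, below background on both arrays. The glucuronosyltransferases UGT1A1 and UGT1A6 were below background on the probe set of their own. The 5 probe sets that both share with other UGT1A genes, which have common exons, were above background on both arrays, and their differences ranged from 0.20 to 0.97. They cannot tell the UGT1A genes apart. HES1, a transcriptional repressor, was at -0.45, and the exporter ABCG2, at 0.86, went from 8.04 to 8.90; UGT1A1, UGT1A6, HES1, ALDH3A1 and ABCG2 were picked with their values in view. The median of the 19 targets was -0.02, beside -0.02 for all 19777 genes, and over the 12 targets above background it was 0.12, beside 0.06 for the 10362 such genes.

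The chaperone complex that holds AhR in the cytosol was well above background in all 4 genes measured. The differences were 0.16 for the chaperone HSP90AA1, 0.08 for the co-chaperone PTGES3 and 0.19 for the kinase SRC, with 0 of 4 past 2-fold and a median of 0.12. Over the probe sets of SRC above background on both arrays the differences ranged from -0.07 to 0.60. The 6 genes of receptor turnover and ADP-ribosylation were above background too, with a median of 0.02 and 0 past 2-fold. The largest differences were those of the polymerase PARP1 at 0.27, the ubiquitin ligase scaffold CUL4B at -0.07 and the ubiquitin ligase STUB1 at 0.07. The other 3 probe sets of CUL4B, all above background on both arrays, were lower, at -0.36, -0.28 and -0.26.

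Of the 12 relatives of AhR and ARNT with bHLH and PAS domains, 7 were above background and 0 passed 2-fold. BMAL2, a circadian partner of CLOCK, came closest. Its brightest probe set went from 6.38 with EtOH to 7.30 with PADMA28, a difference of 0.91, another was at 0.52 and the third, below background, at -0.01. CLOCK was at -0.40. Its relative NPAS2 was at -0.28 on the brightest probe set, while the others, all above background on both arrays, ranged from -0.07 to 0.11. The median was -0.02 over the 12 genes and 0.19 over the 7 above background. HIF1A, the hypoxia-inducible factor that shares ARNT with AhR, was at 0.23 and was picked with its value in view.

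The 8 measured co-regulators of transcription had a median of -0.16, and 0 of 8 passed 2-fold. The coactivator NCOA1 was at 0.40, the Mediator subunit MED1 at 0.32 and the corepressor NRIP1 at -0.30. Over all probe sets of NCOA1, each above background on both arrays, the differences ranged from 0.26 to 0.80. NCOA2, a coactivator that binds AhR, was picked with its values in view. Its brightest probe set was at -0.25, while 205732_s_at was at -0.83 and 205731_s_at went from 6.22 with EtOH to 5.14 with PADMA28, a difference of -1.08. These 3 were above background on both arrays and the other one was not, and with the probe set of the largest difference NCOA2 counts as 1 gene more than 2-fold lower.

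Enzymes that make or use tryptophan-derived AhR ligands were within 2-fold in all 10 cases, with a median of -0.01, and 5 of the 10 were below background on both arrays. TDO2 and IDO1, which open the tryptophan ring, were among the latter, with values from 2.10 to 2.19. Of those above background AADAT, a kynurenine aminotransferase, was at 0.34, the formamidase AFMID at -0.23 and the hydrolase KYNU at 0.09. All 4 electron donors of the P450 enzymes were above background, with a median of 0.10 and 0 past 2-fold. Cytochrome b5, CYB5A, went from 12.20 to 12.91, a difference of 0.72, and 2 of its other probe sets were at 0.78 and 0.83. POR, the main reductase, was at 0.15. CYB5B was at 0.05 on its brightest probe set, while its others, all above background on both arrays, ranged from -0.11 to -0.05.

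**Figure D3:**
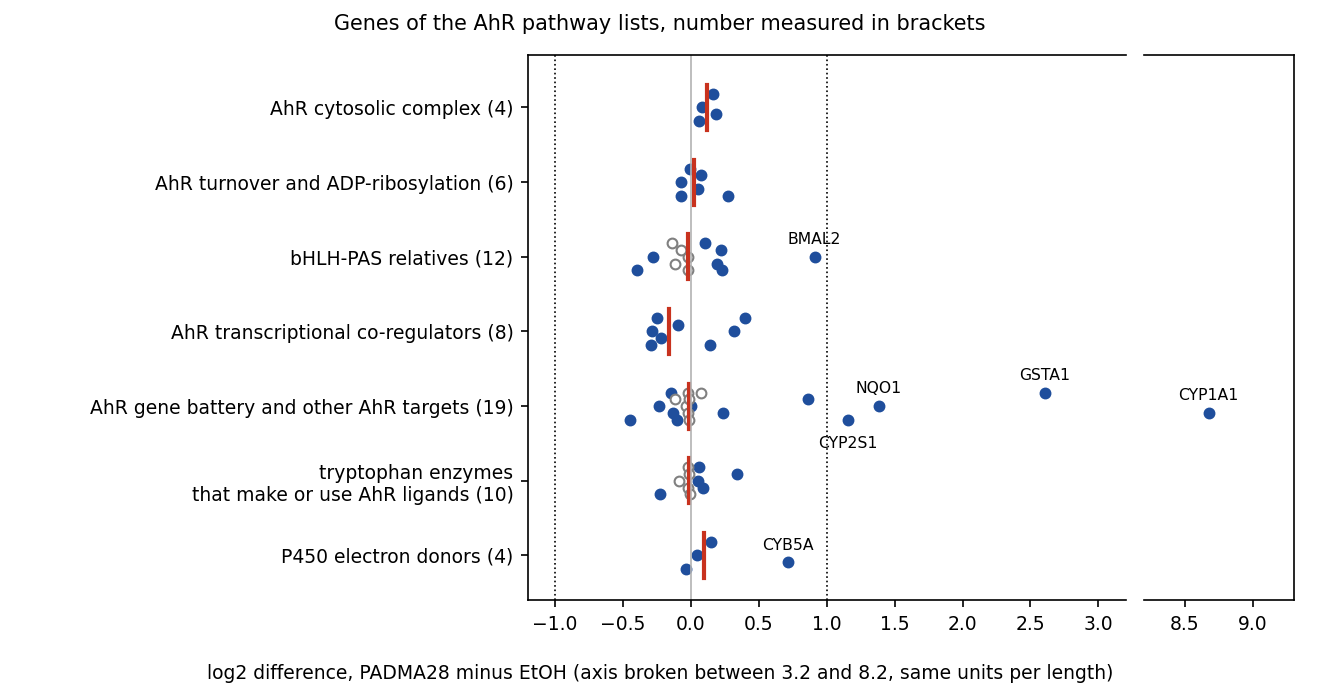
Log2 difference, PADMA28 minus EtOH (horizontal axis, broken between 3.2 and 8.2), of the genes of the 7 AhR pathway lists, with the number measured in brackets, from 1 array per treatment. Each point stands for 1 gene through its brightest probe set, and is filled where that was above the background limit on at least 1 array and open if on neither. The median of each list is drawn as a red bar and the 2-fold thresholds as dotted lines; only the list of targets holds genes beyond 2-fold, which are CYP2S1, NQO1, GSTA1 and CYP1A1.

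The identity of the cells was checked by marker genes. All 8 measured hepatocyte markers, among them albumin, alpha-fetoprotein and apolipoprotein B, were well above background, at 13.3 to 16.6 with EtOH, with differences from -0.55 to -0.05 on their brightest probe sets. Over all 20 of their probe sets above background on both arrays the differences ranged from -1.23 to 0.27, and 2 were more than 2-fold lower, 1 of transferrin (TF) at -1.23 and 1 of albumin (ALB) at -1.07. Of 6 fibroblast markers 4 were below background on both arrays, as were 3 of 4 endothelial markers. The same held for 2 of the 3 leukocyte markers with a probe set of their own. DCN, VWF, CDH5 and PTPRC were among these markers below background. Above it were COL1A1 at -0.03 and PECAM1 at 0.32, each on 1 of 5 probe sets, LYZ at -0.14 and -0.77 on its 2 probe sets, the brighter with a value of 14.4 with EtOH, and PDGFRB, which went from 5.94 with EtOH to 5.33 with PADMA28. CD68, a leukocyte marker measured only by a probe set shared with SNORA67, was at 4.90 with EtOH and at 4.86 with PADMA28, above both limits. The part of these markers above background in the differences of the members was not tested. The 18 hybridisation spike-ins of the arrays differed by -0.15 to 0.10.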

How the data were processed

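Total RNA of HepG2 cells was hybridised to 1 array per treatment. From the scanned intensities the authors computed log2 values by GCRMA and deposited them for all 54675 probe sets. The submitters' processing notes give R 2.15.1 and GCRMA 2.28.0. GCRMA adjusts for background using the base content of the probes, then applies quantile normalization and combines the probes of a set. Quantile normalization gives both arrays nearly the same distribution, so a shift of all genes could not be seen, and GCRMA compresses dim probe sets to a narrow range.

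Genes were named by the Entrez identifiers of the platform annotation, matched to RefSeq symbols (41097 probe sets with 1 gene, 1801 with several, 11777 with none). Members are described by every probe set. List genes are described by the brightest probe set of their own, and lists name every gene past 2-fold and the 3 with the largest difference above background. The members and lists were chosen with earlier results of these data known. With 1 array per treatment no p-value was computed, and the number of arrays limits the precision. Alternatives were 16 or 64 added to linear values, median or loess centring (span 0.3), repeated quantile normalization, filters, and other choices of probe sets. The calculations used pandas 2.3.3 and numpy 2.4.6 in Python 3.11.15, the loess fit used statsmodels 0.14.6, and figures were drawn in matplotlib 3.10.9, and the steps were tested on simulated data.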

Additional observations from a re-analysis of the deposited data

How the results depend on the processing

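Under the alternatives 301 values were computed for 42 results, of which 294 moved by less than 0.14 log2 units, or by no more than 1.5 times for counts, and 0 changed sign past 2-fold. The measure of 0.14 is the median gap between the 2 brightest probe sets of a gene over 4912 genes, since there are no replicates. Many of the 301 values are counts of 0 or differences of dim probe sets, which could hardly move. Adding 16 or 64 to the linear values gave a CYP1A1 difference of 7.55 or 6.17, and adding 64 gave -0.064 for CYP1A2 207608_x_at. The same additions put CYP2S1 at 0.9996 or 0.71, under the 2-fold threshold, so that 3 instead of 4 targets were higher. The fold of CYP1A1 depends on the background limit, an alternative chosen after seeing the data. It was 408-fold with the limit 1 log2 unit above the most frequent value, where the EtOH value counts as measured, and at least 145-fold with the limit 3 units above it. With the probe set of the largest difference 1 co-regulator, NCOA2, was more than 2-fold lower instead of 0, and over the genes above background only the median of the bHLH-PAS relatives was 0.19. The counts of 1 member probe set higher and 0 lower held under each of the 10 alternatives tried for them. Because no member probe set is shared and those other than CYP1A1 lay between -0.65 and 0.35, most of these alternatives could hardly change the counts. No paired analysis was possible because each treatment has 1 array. For CYP1B1, ARNT2 and AHRR the signal over background limits what can be said, since no probe set of theirs was above it.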
